A study of Homo sapiens with 6 samples.

Results

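The cytosolic DNA and RNA sensing pathway was followed through 10 genes: the DNA sensors CGAS and IFI16, the adaptor STING1, the RNA sensors RIGI, IFIH1, DHX58 and TLR3, the mitochondrial adaptor MAVS, the kinase TBK1 and the transcription factor IRF3. They were taken by name from 26856 genes on primary chromosomes, each represented by its transcript entry with the largest summed mean. RNA was sequenced from U2OS 2-6-3 cells, a clonal human osteosarcoma line in which an array of tet operators and a reporter gene is integrated in the genome. The 6 libraries formed 3 groups of 2, all exposed to white light overnight and grown in serum free of doxycycline. Untransfected cells received neither plasmid nor reagent. Mock cells were transiently transfected, with the Roche Xtreme gene reagent, with TetR-RFP and YFP. Sample cells were given mCherry-MCP, PHR-YFP-VP16 and CIBN-TetR with that reagent. No group received the reagent or a plasmid alone, so effects of the reagent, of the plasmid DNA and of the proteins it encodes cannot be told apart in a comparison with untransfected cells. The share of cells that took up plasmid is not given in the sources used here, and each level is an average over the whole culture.

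Cells carry sensors that detect DNA or double-stranded RNA in the cytosol. CGAS binds DNA and makes a cyclic dinucleotide that activates STING1, while RIGI (RIG-I) and IFIH1 (MDA5) bind RNA and act through MAVS. TLR3 detects double-stranded RNA in endosomes and acts through TICAM1. The branches meet at TBK1, which phosphorylates IRF3, and IRF3 then enters the nucleus and switches on type I and type III interferon genes and a set of antiviral genes. Interferon acts back on the cell through its receptors and a transcription factor complex that includes STAT2 and IRF9, and several sensors are themselves interferon-induced genes. Plasmid DNA delivered by a transfection reagent is a known ligand of the DNA branch.

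Interferon-induced genes often carry a promoter element bound by IRF proteins, so the promoters of the members were searched for GAAANNGAAA on either strand. RefSeq promoters of 300 bases (build GRCh38.p14, from 250 bases before to 50 after the start) were matched by symbol for 6 of the 10 members, IFI16, RIGI, IFIH1, MAVS, TLR3 and TBK1. IFIH1 and TLR3 held the element, and 3.57% of 35116 promoters of that length did. IFIH1 had 3 matches, beginning at -159, -153 and -21 from the RefSeq start, the first and second of which overlap, and TLR3 had 1, beginning at -4. The windows of IFIH1, TLR3 and RIGI, an RNA sensor closely related to IFIH1, are shown. The search allows only the spacing written above. The RIGI window holds gaaacgaaa, where 1 base separates the repeats, and this near match was not scored. The first runs at chr2:162318679-162318934 on the minus strand, the second at chr4:186068906-186069165 on the plus strand, and the third at chr9:32526295-32526446 on the minus strand. Each window starts 250 bases before the RefSeq start, ends at most 30 bases past the start of the deposited transcript entry, and has matches to the element in capitals.
IFIH1: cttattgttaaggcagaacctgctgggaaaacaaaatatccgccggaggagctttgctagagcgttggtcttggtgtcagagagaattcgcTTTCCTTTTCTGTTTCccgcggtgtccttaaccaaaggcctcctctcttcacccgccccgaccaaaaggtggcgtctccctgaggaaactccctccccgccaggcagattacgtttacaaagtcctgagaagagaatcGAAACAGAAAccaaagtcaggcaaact
TLR3: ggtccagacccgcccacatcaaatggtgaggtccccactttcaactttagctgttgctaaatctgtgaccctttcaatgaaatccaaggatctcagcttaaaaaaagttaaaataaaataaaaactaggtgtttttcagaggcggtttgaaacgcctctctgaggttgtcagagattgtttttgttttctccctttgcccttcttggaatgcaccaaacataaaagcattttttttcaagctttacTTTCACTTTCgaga
RIGI: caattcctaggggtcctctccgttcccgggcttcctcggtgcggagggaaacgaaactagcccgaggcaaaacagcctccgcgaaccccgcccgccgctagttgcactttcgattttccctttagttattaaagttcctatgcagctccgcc
Other motifs were searched for over the whole 300-base promoters, of which the windows show only a part. An NF-kB element, GGGNNNTTCC on either strand, began at -76 in the promoters of both RIGI and IFIH1 and was present in 6.52% of all promoters. The RIGI match lies past the end of the window printed above, because the deposited RIGI entry starts at -128, so the match falls inside that entry. The deposited IFI16 entry starts 901 bases after the RefSeq start that was searched. The STAT element TTCNNNGAA was found in TLR3 alone of the 6, at -178 and -50, against 7.66% of promoters. GC boxes (GGGCGG, 45.0% of promoters) lay in the promoters of RIGI, IFIH1, MAVS and TLR3, and an ETS element (CCGGAAG, 10.3% of promoters) began at -2 in that of TBK1. Other matches also fell inside deposited entries. The IFIH1 match at -21 follows an entry start at -24, and the TBK1 match follows one at -60. The MAVS GC boxes at -9 and 31 follow an entry start at -35. The TLR3 match beginning at -4 spans its entry start at -1. These matches describe the letters of the promoters and do not show that a factor was bound.

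Depth, similarity of libraries and cell identity bear on every value. Totals over transcript entries were 44594507 to 54177551 reads in 5 libraries and 9579278 in the shallower sample library. Within each group the libraries are called deeper and shallower, because their replicate numbers could not be assigned. Over 12573 well-covered genes the SD of the log2 difference between the libraries of a group was 0.173 for untransfected, 0.208 for mock and 0.413 for sample cells, so the sample pair varied most. Marker genes moved with transfection too. Of 12 osteoblast lineage genes IBSP and DLX5 had no reads and SP7 had 1. Of 9 tested 3 were called higher and 3 lower in mock cells (DESeq2, authors' deposited table), or 66.7% against 50.9% of all genes tested. SPARC, a bone matrix protein gene, went from 32314 ± 296 normalized reads (SD, n = 2) in untransfected to 20805 ± 735 in mock and 21075 ± 318 in sample cells. RUNX2 went from 399 ± 25.3 to 65.1 ± 1.78 and 112 ± 27.4, and ALPL from 63.2 ± 8.03 to 813 ± 74.8 and 596 ± 81.6. Of 10 blood cell markers CD3E and HBA2 had no reads, and the summed level was 40.9 to 45.1 normalized reads in untransfected, 116 to 149 in mock and 210 to 218 in sample cells. Most of that difference lay in CD68, with means of 17.3, 90.0 and 106 in the 3 groups, and HBB, with 3.1, 7.5 and 82.3, whereas the pan-leukocyte gene PTPRC had 11.6, 5.95 and 4.0. For 10 epithelial markers the sum ranged from 14363 to 17707 normalized reads over all libraries, most of it the keratins KRT8 and KRT18. Yet 4 of 8 tested were called lower and 1 higher in mock cells, or 62.5% against 50.9% of all genes. CLDN4 went from 1467 ± 49.7 to 114 ± 12.9 in mock and 142 ± 8.69 in sample cells, and KRT5, KRT14 and EPCAM were lower as well, while KRT18 went from 5351 ± 234 to 9775 ± 1199 and 9619 ± 1059. The part of these markers in the results was not tested. Whether the replicates came from separate cultures is not stated in the labels, and if they did not, the p-values rest on technical spread alone.

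In mock against untransfected cells the DNA sensor CGAS, the RNA sensor RIGI and the kinase TBK1 rose by about 1.40-fold to 1.41-fold, and the RNA sensor IFIH1 fell to 0.43 of its untransfected level (limma-voom estimates). STING1, IFI16, DHX58, MAVS, TLR3 and IRF3 did not pass the authors' test. By that test (DESeq2, adjusted p under 0.05 over the whole table) 4 of the 10 members were called, a share no higher than the 50.9% of all 17087 genes tested. The 3 higher members stand beside 27.5% of genes called higher, and the 1 lower member beside 23.3% called lower. In sample cells 2 of 9 tested members were called against 37.3% of 15560 genes, CGAS higher (20.2% of genes) and IFIH1 lower (17.1% of genes). By limma-voom 5 of 8 members passed in mock and 3 of 8 in sample cells, where 59% and 50.6% of genes did. Libraries of mock and untransfected cells did not overlap for 9 of 10 members and those of sample and untransfected cells for 5 of 10, beside 79.6% and 73.8% of tested genes. Both comparisons use the same untransfected libraries and are not independent. In these bulk samples fewer cells expressing a gene and less RNA per cell cannot be told apart.

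**Figure D1:**
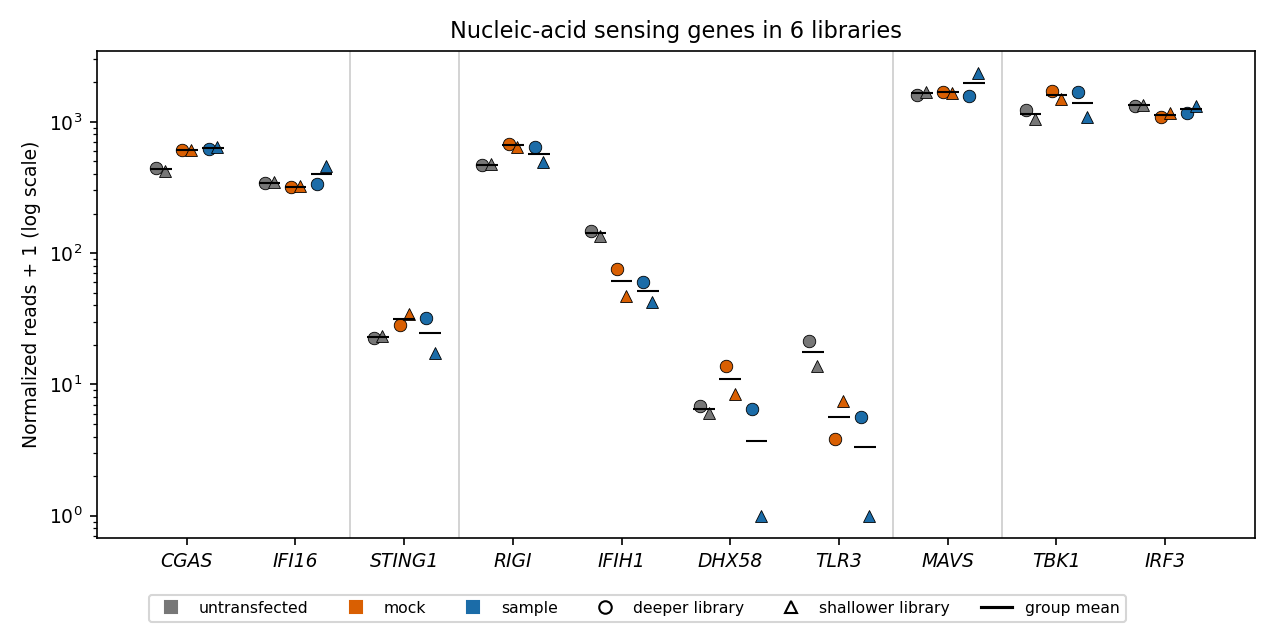
Normalized reads plus 1 (log scale) of the 10 genes in each library: colours mark the 3 groups, circles the deeper and triangles the shallower library, and bars the group mean. Both transfected groups lie above untransfected cells for CGAS and below them for IFIH1, whereas MAVS, TBK1 and IRF3 stand above 1000 in every library.

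CGAS makes the second messenger of the DNA branch. Its deeper and shallower untransfected library held 446 and 423 normalized reads, its mock libraries 609 and 608, and its sample libraries 621 and 637. Every transfected library thus exceeded both untransfected ones, and the 4 transfected libraries lay close together. Against untransfected cells the log2 fold change was 0.51 (SE 0.13, DESeq2 adjusted p = 0.000198) for mock and 0.53 (SE 0.17, DESeq2 adjusted p = 0.00831) for sample cells in the authors' deposited tables. From counts recovered out of those tables, limma-voom gave 1.40-fold (95% interval 1.21 to 1.62) and 1.44-fold (1.23 to 1.69).

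IFI16, a nuclear and cytosolic DNA-binding protein of the PYHIN family, had 339 and 347 normalized reads without transfection, 315 and 324 with mock and 334 and 460 with sample plasmids. The shallower sample library was the highest of the 6, and the other 5 lay within 315 to 347. No change passed the test, with log2 fold changes of -0.07 (DESeq2 adjusted p = 0.749) for mock and 0.18 (DESeq2 adjusted p = 0.567) for sample cells in the authors' deposited tables. The limma-voom interval for mock against untransfected cells was 0.76 to 1.14-fold. The other PYHIN genes AIM2, MNDA and PYHIN1 had at most 8 reads in any library. The IFI16 entry overlaps AIM2 and an uncharacterized locus, and whether the authors counted by strand is not given in the sources used here.

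STING1, the endoplasmic reticulum protein through which the DNA branch signals, was expressed at a low level: untransfected libraries had 33 and 31 reads, mock libraries 39 and 36, and sample libraries 40 and 4. Normalized, these were 21.6 and 22.2, 27.5 and 33.3, and 31.2 and 16.4. The mock libraries lay above the untransfected ones and the sample libraries on either side of them. No difference passed, with a log2 fold change of 0.41 (SE 0.42, DESeq2 adjusted p = 0.441) in mock cells in the authors' deposited table, and a limma-voom interval of 0.85 to 2.19-fold, so a rise of that size and no difference both lie within the interval. Per kilobase of transcript, STING1 stood at 8.12% to 9.85% of the CGAS level in 5 libraries and at 4.64% in the shallower sample library, where it rests on 4 reads.

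Among the RNA sensors RIGI and IFIH1 went in opposite directions in mock cells. RIGI, which recognizes the ends of short double-stranded RNA, had 470 and 473 normalized reads without transfection, 678 and 646 with mock and 642 and 489 with sample plasmids. All transfected libraries were above the untransfected ones, the shallower sample library by the smallest margin. The rise passed for mock cells (log2 fold change 0.52, SE 0.12, DESeq2 adjusted p = 9.55e-05, authors' deposited table). For sample cells the authors' deposited table gave 0.29 (SE 0.20, DESeq2 adjusted p = 0.251), while limma-voom gave 0.35 (adjusted p = 0.0428), or 1.27-fold (1.05 to 1.55), so that call depends on the test. The call was made in 4 alternative analyses and not in 11, which include the stricter thresholds that could not have added it. It was also lost without any 1 library other than the shallower sample one (adjusted p = 0.0663 to 0.816), and the difference was 0.057 without the deeper sample library. The RIGI entry overlaps 2 uncharacterized loci.

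IFIH1 detects long double-stranded RNA. Untransfected libraries had 223 and 188 reads, mock libraries 106 and 50, and sample libraries 76 and 10, which are 146 and 135, 74.8 and 46.3, and 59.2 and 41.1 normalized reads. All transfected libraries lay well under both untransfected ones. IFIH1 fell by 1.09 on the log2 scale (SE 0.28, DESeq2 adjusted p = 0.000255) in mock and by 1.20 (SE 0.35, DESeq2 adjusted p = 0.00259) in sample cells in the authors' deposited tables, the largest called difference among the members in both. The limma-voom estimates were 0.43-fold (0.30 to 0.62) and 0.39-fold (0.26 to 0.61). Both calls held in all 15 alternative analyses, the loss of any 1 library included. As a share of RIGI per kilobase of transcript, the IFIH1 level was 37.6% and 34.5% without transfection, 13.4% and 8.67% in mock cells and 11.2% and 10.2% in sample cells.

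DHX58 (LGP2), a regulator of the other RNA sensors that lacks their signalling domains, was near the limit of detection, with 9 and 7 untransfected reads, 18 and 8 mock reads and 7 and 0 sample reads in the deeper and shallower libraries. A count of 0 in the shallower sample library allows a level of up to 12.3 normalized reads, counting error only, which is no lower than most of the other values. DHX58 did not pass in mock cells (log2 fold change 0.52, DESeq2 adjusted p = 0.442, authors' deposited table), and the table for sample against untransfected cells gives it no adjusted p.

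TLR3 had 31 and 18 reads without transfection, 4 and 7 with mock and 6 and 0 with sample plasmids, or 20.3 and 12.9, 2.82 and 6.48, and 4.68 and 0 normalized reads. The untransfected libraries were the 2 highest, although the 0 in the shallower sample library again allows up to 12.3. In the authors' deposited tables the log2 fold changes were -1.10 (SE 0.52, DESeq2 adjusted p = 0.0674) for mock and -0.85 (SE 0.49, DESeq2 adjusted p = 0.171) for sample cells, neither past the threshold. Fitted with limma-voom on genes with a mean of at least 1 normalized read, the differences did pass, at -1.88 (adjusted p = 0.0172) and -2.07 (adjusted p = 0.0394), with wide intervals of 0.11 to 0.64-fold and 0.08 to 0.72-fold. With so few reads the lower TLR3 level is less certain than that of IFIH1.

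MAVS, the mitochondrial protein on which RIGI and IFIH1 converge, had 1592 and 1698 normalized reads in the untransfected libraries, while mock libraries had 1694 and 1667, and sample libraries 1570 and 2355. The shallower sample library stood above the other 5, which lay within 1570 to 1698. In the authors' deposited tables the log2 fold change was 0.06 (SE 0.09, DESeq2 adjusted p = 0.587) for mock and 0.24 (SE 0.18, DESeq2 adjusted p = 0.303) for sample cells. The limma-voom intervals were 0.83 to 1.26-fold and 0.87 to 1.35-fold.

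TBK1, the kinase shared by the branches, had 1219 and 1053 normalized reads in the untransfected libraries, while mock libraries had 1727 and 1480, and sample libraries 1671 and 1093. Mock libraries and the deeper sample library were above the untransfected range, and the shallower sample library lay within it. TBK1 rose in mock cells by a log2 fold change of 0.52 (SE 0.11, DESeq2 adjusted p = 6.00e-06) in the authors' deposited table, and limma-voom gave 1.41-fold (1.12 to 1.78, adjusted p = 0.0164). That limma-voom call was lost without the shallower untransfected library (0.40, adjusted p = 0.116) and without the deeper mock library (0.39, adjusted p = 0.135). In sample cells it did not pass in the authors' deposited table (0.30, SE 0.20, DESeq2 adjusted p = 0.232), whereas without the shallower sample library limma-voom gave 0.58 (adjusted p = 0.000893).

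IRF3, the transcription factor that TBK1 activates, had 1311 and 1347 normalized reads without transfection, 1078 and 1172 with mock and 1171 and 1311 with sample plasmids. Untransfected libraries were the highest, and the shallower sample library was level with the lower of them. The differences did not pass in the authors' deposited tables, at -0.21 (SE 0.10, DESeq2 adjusted p = 0.0626) for mock and -0.10 (SE 0.14, DESeq2 adjusted p = 0.629) for sample cells. By limma-voom the lower mock level did pass, at 0.84-fold (0.74 to 0.96, adjusted p = 0.0313). That limma-voom call was lost without the deeper untransfected (adjusted p = 0.102), the shallower untransfected (adjusted p = 0.155) or the deeper mock library (adjusted p = 0.207). IRF3 activity is set by phosphorylation, which these data do not measure, and the IRF3 entry overlaps its neighbour BCL2L12.

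**Figure D2:**
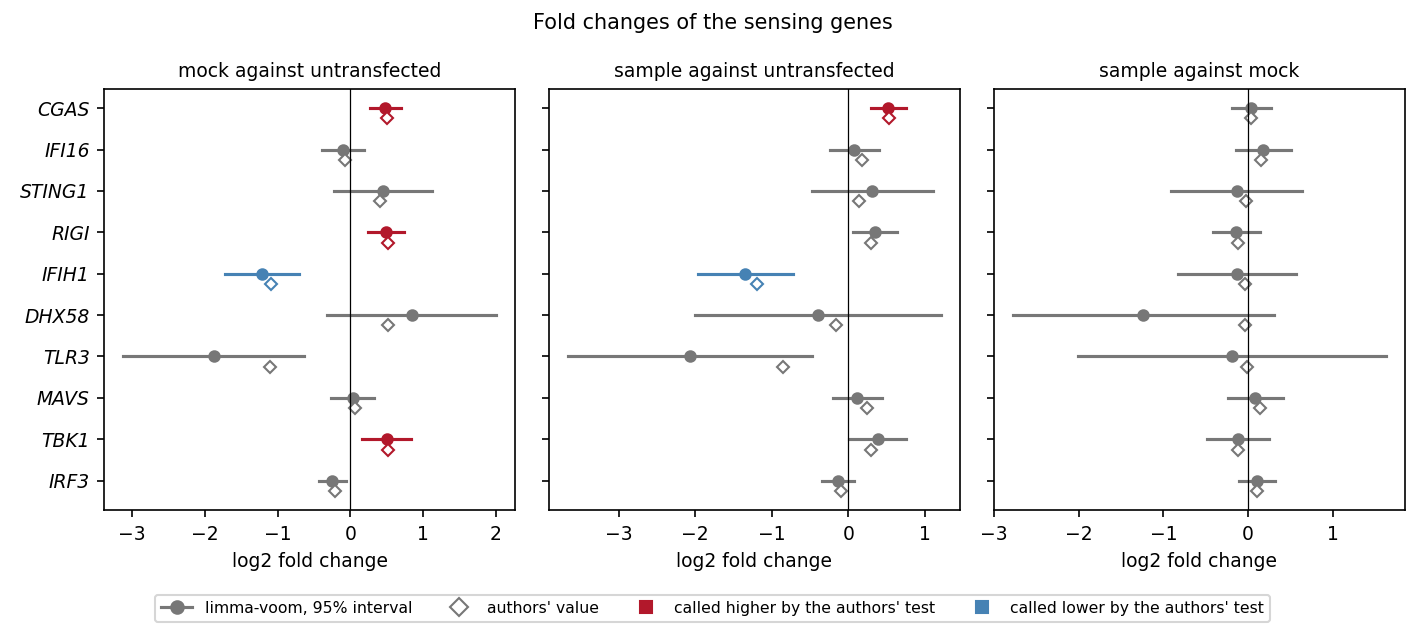
Log2 fold changes of the 10 genes in the 3 comparisons: filled circles with bars are limma-voom estimates with 95% intervals, open diamonds the authors' DESeq2 values, and red or blue marks a gene that the authors' test called higher or lower. CGAS, RIGI and TBK1 are called higher and IFIH1 lower in mock cells, CGAS and IFIH1 keep their calls in sample cells, and no gene is coloured in sample against mock cells.

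Between the transfected groups no member differed past the threshold: 0 of 9 tested by the authors' DESeq2 test, 0 at an unadjusted p under 0.05 and 0 of 8 by limma-voom. Over all genes the authors' test called 0.0654% of 15280 and limma-voom called 0. Intervals for sample over mock cells were narrow for CGAS (1.03-fold, 0.88 to 1.20), IRF3 (1.08-fold, 0.93 to 1.25) and RIGI (0.91-fold, 0.75 to 1.10). They were wider for TBK1 (0.92-fold, 0.71 to 1.19), IFI16 (1.13-fold, 0.90 to 1.42) and MAVS (1.06-fold, 0.85 to 1.33). For the low genes IFIH1 (0.91-fold, 0.56 to 1.48) and STING1 (0.91-fold, 0.53 to 1.55) differences of about 1.5-fold in either direction remained within the interval. DHX58 (0.15 to 1.23) and TLR3 (0.25 to 3.09) were not resolved. Values of sample and mock libraries did not overlap for CGAS, IFI16, RIGI and DHX58, 4 of 10, where 34.2% of tested genes did not overlap. Without the deeper sample library, which leaves only the shallow one, limma-voom called MAVS higher in sample cells (0.48 on the log2 scale, adjusted p = 0.0183).

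Compared per kilobase of transcript, the members covered a wide range of levels. In untransfected cells IRF3 was highest at 763 ± 14.4 normalized reads per kilobase (SD, n = 2), the 86.9th percentile of 21182 genes, and TBK1 followed at 349 ± 36.2. MAVS (142 ± 6.42), CGAS (137 ± 5.30) and IFI16 (131 ± 2.16) came next, and neighbours in that order overlapped in their libraries. RIGI was at 108 ± 0.46, IFIH1 at 39.0 ± 2.14 and STING1 at 12.4 ± 0.27, each clear of its neighbours. TLR3 (2.76 ± 0.86) and DHX58 (2.08 ± 0.23) were lowest and overlapped. In mock cells the order changed in the middle: CGAS (191 ± 0.29) and RIGI (152 ± 5.28) stood above MAVS (145 ± 1.64) and IFI16 (123 ± 2.25), and IFIH1 (16.8 ± 5.62) overlapped STING1 (17.2 ± 2.31). Percentiles of the mean level moved from 59.6 to 65.1 for CGAS and from 44.1 to 39.4 for IFIH1. Lengths are those of single transcript models, so a gene read mainly from a shorter or longer isoform would shift in this order.

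Around the members, 207 other genes of the pathway in 11 lists, chosen with earlier results of these data known, were followed. In mock cells 115 of 184 tested were called, 80 higher and 35 lower, or 62.5% against 50.9% of all genes, with a median log2 fold change of 0.17 against 0.00 over all genes. In sample cells 77 of 177 were called, 57 higher and 20 lower, or 43.5% against 37.3%, with a median of 0.10. By limma-voom 108 of 175 were called in mock and 94 of 175 in sample cells, where 59% and 50.6% of all genes were. Sample and mock cells differed in 0 of 177 by the authors' DESeq2 test (3 at an unadjusted p under 0.05, 0 of 175 by limma-voom). The counts of each list below are by the authors' test unless limma-voom is named. They stand beside 27.5% of all genes called higher and 23.3% lower in mock cells, and 20.2% and 17.1% in sample cells. All fold changes of these genes are from the authors' deposited tables.

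**Figure D3:**
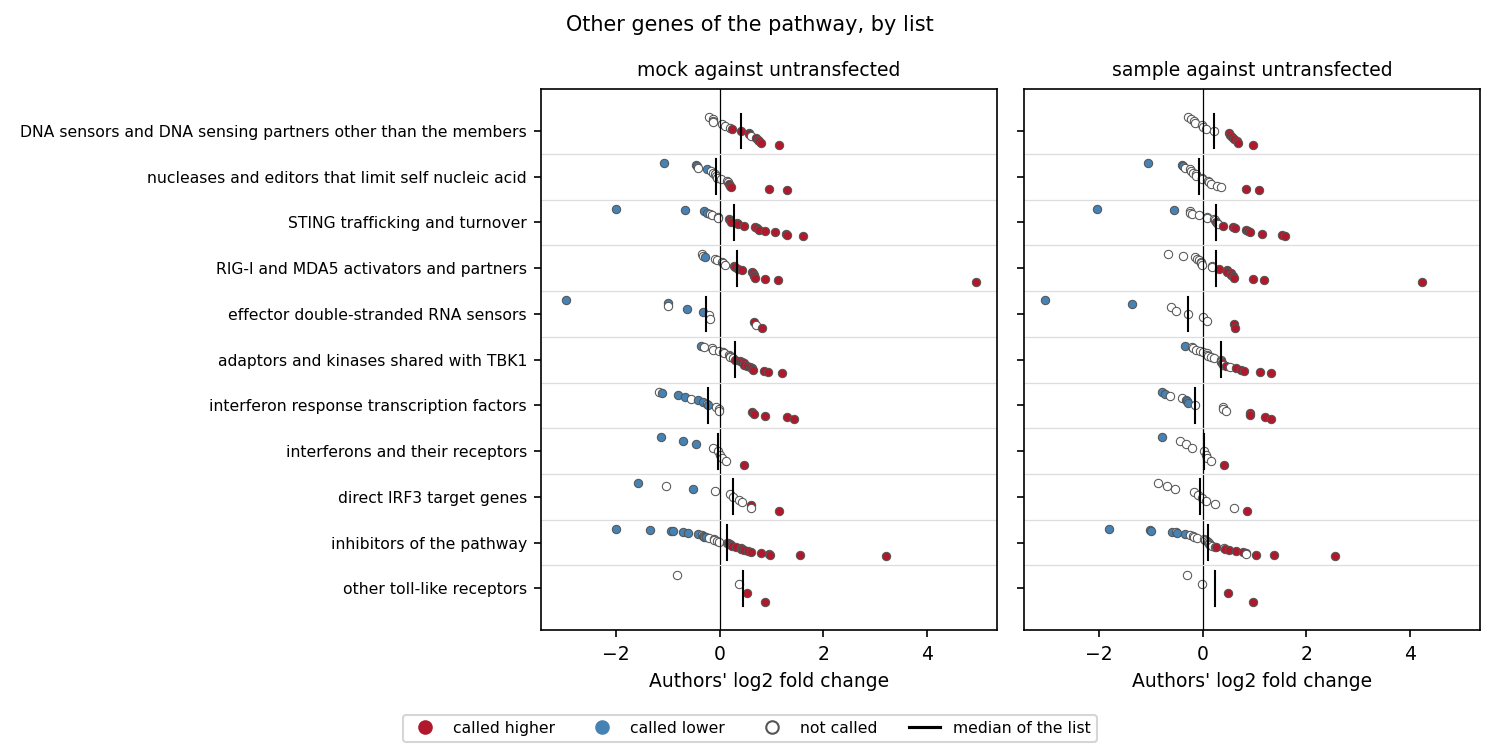
Authors' log2 fold changes of the tested genes of the 11 lists in mock and in sample against untransfected cells: each point is a gene, filled red or blue where called higher or lower, and the vertical bar is the median of the list. Among STING trafficking and turnover genes 14 of 22 are called higher and 4 lower in mock cells, beside 27.5% and 23.3% of all genes. By limma-voom, not drawn, 11 of 22 are higher and 4 lower, beside 59% of all genes called in either direction. The lowest points are IFIT1, INSIG1 and SOCS1 and the highest are RDUR and TNFAIP3.

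Upstream in the DNA branch, 9 of 17 tested DNA sensors and partners rose in mock cells and 0 fell (52.9% called, 50.9% of all genes), and 7 of 15 rose and 0 fell in sample cells (46.7%, 37.3% of all genes). By limma-voom 9 of 15 rose and 1 fell in mock cells, and 7 rose and 1 fell in sample cells. Of all genes limma-voom called 59% and 50.6%. LRRFIP1, a nucleic acid binding protein, went from 1239 and 1221 normalized reads to 2587 and 2738 in mock and 2355 and 2470 in sample cells. The other genes of the list named for the size of their change were POLR3F, which rose by 0.79 and 0.66, POLR3B by 0.77 and 0.60 and POLR3C by 0.74 and 0.68 in mock and sample cells in the authors' deposited tables. They encode subunits of RNA polymerase III, which can copy cytosolic DNA into a ligand of RIGI, and most other subunits of that enzyme were not in the list. Of 22 genes of STING1 trafficking and turnover or of ligand transport, 14 rose and 4 fell in mock cells (81.8% called, 50.9% of all genes). In sample cells 11 rose and 2 fell (59.1%, 37.3% of all genes). By limma-voom 11 of 22 rose and 4 fell in each comparison, beside 59% and 50.6% of all genes called. SLC19A1, a folate carrier that also imports cyclic dinucleotides, rose from 524 and 556 normalized reads to 1563 and 1695 in mock and 1632 and 1689 in sample cells. LRRC8C, a channel subunit that passes the second messenger of CGAS between cells, rose by 1.30 and 1.15, and RHBDF2, which assists STING1 trafficking, by 1.28 and 1.54. INSIG1, a sterol-regulated protein of the endoplasmic reticulum, fell by 2.00 and by 2.04 on the log2 scale in mock and sample cells. STING1 itself did not pass in either comparison.

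Among 18 nucleases and editors that keep self nucleic acid low, 5 rose and 4 fell in mock cells, and 2 rose and 3 fell in sample cells. The shares called, 50% and 27.8%, were no higher than the 50.9% and 37.3% of all genes. DNASE2, the lysosomal DNase, fell from 786 and 832 normalized reads to 359 and 389 in mock and 383 and 370 in sample cells (-1.07 and -1.05 in the authors' deposited tables). PNPT1 and SUPV3L1, which together degrade mitochondrial RNA, rose by 1.30 and 0.95 in mock and by 1.09 and 0.84 in sample cells. TREX1, the cytosolic exonuclease that removes DNA ligands of CGAS, did not pass (-0.42, DESeq2 adjusted p = 0.0818, for mock and -0.13, DESeq2 adjusted p = 0.742, for sample cells, authors' deposited tables), although limma-voom called the mock difference (-0.46, adjusted p = 0.0259).

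On the RNA side 12 of 20 activators and partners of RIGI and IFIH1 rose and 1 fell in mock cells (65.0% called, 50.9% of all genes), and 10 rose and 0 fell in sample cells (50%, 37.3% of all genes). By limma-voom 11 of 20 rose and 1 fell in mock cells, and 9 rose and 0 fell in sample cells. Of all genes limma-voom called 59% and 50.6%. RDUR, a long non-coding RNA named for its link to RIG-I responses, rose from 6.54 and 8.61 normalized reads to 329 and 329 in mock and 267 and 222 in sample cells, the largest rise of any listed gene (4.95 and 4.24 on the log2 scale in the authors' deposited tables). TRIM25, a ubiquitin ligase of the RIGI branch, rose by 0.88 and 0.98, and TRIM14, an adaptor at MAVS, by 1.12 and 1.19. The effector sensors of double-stranded RNA were mixed, with 2 of 10 tested higher and 4 lower in mock cells (60.0% called, 50.9% of all genes) and 2 of 9 higher and 2 lower in sample cells (44.4%, 37.3% of all genes). IFIT1, which binds viral RNA ends, fell from 311 and 331 normalized reads to 40.2 and 31.5 in mock and 34.3 and 8.22 in sample cells, the last of which is under the 12.3 that 3 reads are worth there. OASL fell by 1.01 and by 1.36 on the log2 scale, and NLRP1, an inflammasome sensor, rose by 0.83 and 0.64. By limma-voom the NLRP1 difference in sample cells was 0.73 (adjusted p = 0.0142), and it no longer passed without the deeper sample (0.47, adjusted p = 0.240) or the shallower untransfected library (0.52, adjusted p = 0.0988). EIF2AK2 (PKR), the kinase that halts translation on double-stranded RNA, fell by 0.33 in mock cells, and its value in sample cells was -0.27 (DESeq2 adjusted p = 0.075, authors' deposited table).

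At the level of TBK1, 12 of 23 adaptors and kinases rose and 1 fell in mock cells, and 8 rose and 1 fell in sample cells. The shares called, 56.5% and 39.1%, lay near the 50.9% and 37.3% of all genes. TRAF3, which links MAVS to TBK1, went from 998 and 1005 normalized reads to 2262 and 2304 in mock and 2159 and 2166 in sample cells. TRAF2 rose by 0.85 and 0.81 and IKBKE, the kinase most like TBK1, by 0.53 and 0.45. TICAM1, the adaptor of TLR3, rose by 0.93 and 1.33 in the authors' deposited tables, and its sample libraries were far apart at 126 and 337 normalized reads. By limma-voom its difference in sample cells was 1.06, or 2.18 without the deeper sample library. Its limma-voom calls were lost without any 1 mock or untransfected library in mock cells (adjusted p = 0.0811 to 0.148), and in sample cells without either untransfected library (adjusted p = 0.0827 and 0.108) or the shallower mock library (adjusted p = 0.0518). Of the other toll-like receptors TLR4 rose by 0.87 and 0.97 and TLR6 by 0.53 and 0.48, and 2 of 4 tested passed in each comparison. The limma-voom call of IKBKE in sample cells was lost without the deeper sample library (adjusted p = 0.111). Those of TLR6 were lost without the deeper mock library in mock cells (adjusted p = 0.0649), and without the deeper sample (adjusted p = 0.148) or the shallower untransfected library (adjusted p = 0.0642) in sample cells.

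Downstream, each interferon gene listed had at most 4 reads in any library. IFNB1, the gene for interferon beta, had 0 reads in every library, which allows up to 1.96 to 2.78 normalized reads in 5 libraries and 12.3 in the shallower sample library, and 6 of the 17 interferon and receptor genes had no reads at all. IRF7, which amplifies the interferon response, had 1 read over all libraries. Of 9 tested interferon and receptor genes 1 rose and 3 fell in mock cells (44.4% called) and 1 rose and 1 fell in sample cells (22.2%), against 50.9% and 37.3% of all genes. Interferon receptor chains were uneven: IFNLR1 fell by 1.14 and by 0.79 on the log2 scale in mock and sample cells, IFNAR2 fell by 0.72 in mock cells with a value of -0.44 (DESeq2 adjusted p = 0.228) in sample cells, and IFNAR1 rose by 0.47 and 0.41 (authors' deposited tables). Of 17 tested transcription factors of the interferon response 5 rose and 6 fell in mock cells (64.7% called), and 4 of 15 rose and 5 fell in sample cells (60.0%). IRF9 and STAT2, which carry the interferon signal to the nucleus, both fell. IRF9 went from 282 and 306 normalized reads to 140 and 118 in mock and 159 and 173 in sample cells (-1.11 and -0.77), and STAT2 from 1875 and 1740 to 1028 and 974 and then 1070 and 1093 (-0.81 and -0.72), with each call past the threshold in the authors' deposited tables. By contrast the NF-kB genes NFKB1 and RELA rose by 1.30 and 0.66 in mock and by 1.20 and 0.91 in sample cells, and BATF3 by 1.44 and 1.32. The sample libraries of RELA were far apart at 939 and 1627 normalized reads, and its limma-voom difference of 0.75 in sample cells became 1.31 without the deeper one. In mock cells the limma-voom call of RELA was lost without the deeper untransfected (adjusted p = 0.0652), the deeper mock (adjusted p = 0.0513) or the shallower mock library (adjusted p = 0.0622).

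Of 11 tested direct targets of IRF3 2 rose and 2 fell in mock cells, and 1 of 10 rose and 0 fell in sample cells. The shares called, 36.4% and 10.0%, were below the 50.9% and 37.3% of all genes, a difference that was not tested. By limma-voom 2 of 10 rose and 3 fell in mock cells, and 1 of 10 rose and 3 fell in sample cells. Of all genes limma-voom called 59% and 50.6%. PMAIP1, a proapoptotic gene, rose from 1482 and 1420 normalized reads to 3062 and 3252 in mock and 2925 and 2355 in sample cells. ISG15 fell by 0.51 in mock cells and had a value of -0.54 (DESeq2 adjusted p = 0.0839) in sample cells, and ISG20 rose by 0.60 in mock cells with 0.07 in sample cells (authors' deposited tables). In mock cells the limma-voom call of ISG15 was lost without the shallower untransfected (adjusted p = 0.0503) or the deeper mock library (adjusted p = 0.0607). That of ISG20 was lost without either untransfected (adjusted p = 0.165 and 0.0588) or the shallower mock library (adjusted p = 0.141). IFIT2 did not pass, with 26.1 and 27.3 normalized reads before transfection, 31.8 and 33.3 in mock cells and 21.0 and 28.8 in sample cells. Of 33 tested inhibitors of the pathway 16 rose and 10 fell in mock cells (78.8% called, 50.9% of all genes), and 9 of 32 rose and 6 fell in sample cells (46.9%, 37.3% of all genes). By limma-voom 11 of 32 rose and 10 fell in mock cells, and 10 rose and 8 fell in sample cells, beside the 59% and 50.6% above. TNFAIP3 (A20), which limits NF-kB and TBK1 signalling, rose by 3.22 and 2.57, and SMURF2, a ubiquitin ligase, by 1.54 and 1.39. SOCS1, a brake on interferon receptors, fell from 173 and 201 normalized reads to 43.1 and 39.8 in mock and 47.6 and 37.0 in sample cells.

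**Figure D4:**
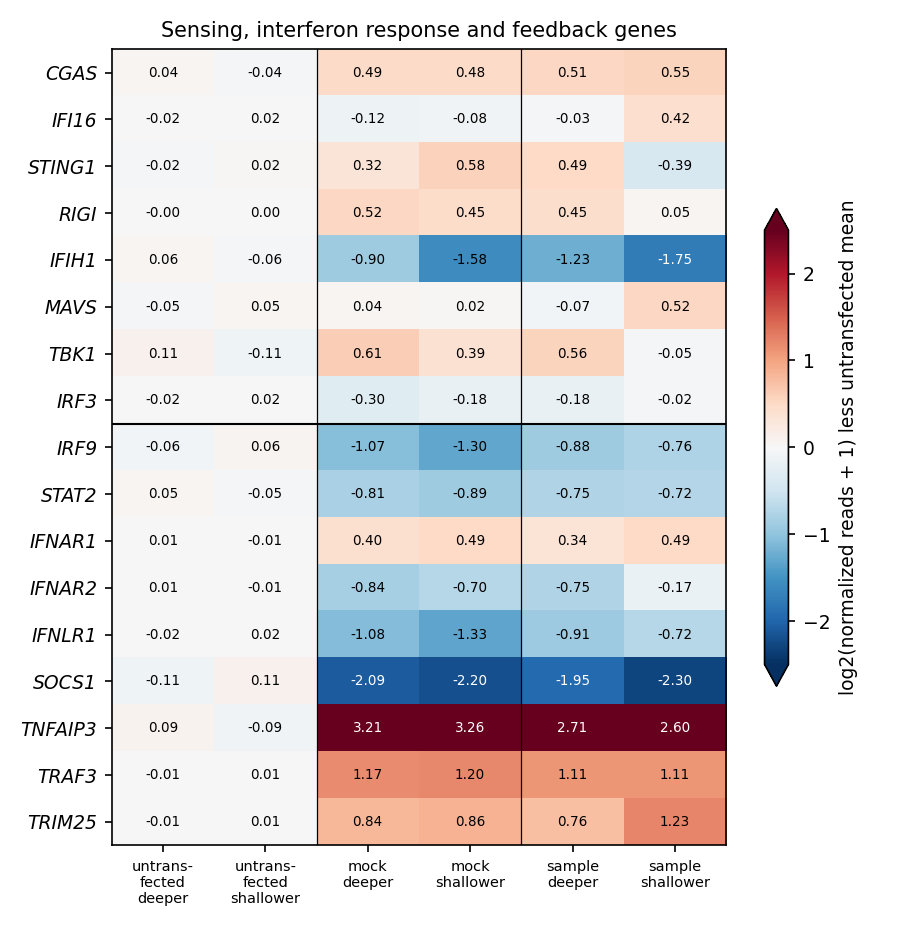
Log2(normalized reads + 1) of 8 members (above the line) and of 9 signalling and feedback genes (below it) in the 6 libraries, each less the mean of the untransfected libraries; DHX58 and TLR3 are left out because of their low counts. IFIH1, IRF9, STAT2, IFNLR1 and SOCS1 are blue in all 4 transfected libraries, CGAS, TRAF3, TRIM25 and TNFAIP3 are red in all 4, and MAVS is off white except in the shallower sample library (0.52).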

How the data were processed

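The submitters' processing notes list STAR, Bowtie, DESeq2 and hg38, without versions, annotation or counting rule. Per the file headers, each of 3 deposited tables gives 40029 transcript entries with the mean signal (normalized read count) over its 4 libraries, the authors' log2 fold change and SE, their Wald score, and their p-value before and after adjustment. The deposited log2 values show shrinkage toward 0, most between sample and mock cells. Whole counts of the 6 libraries were solved from the 3 deposited means by lattice reduction, for 30527 of 30527 entries with reads, within a relative tolerance of 1e-14. On simulated counts 21044 of 21044 entries were recovered. RefSeq and GENCODE tables gave a symbol to 39745 entries (99.3%), and 0.0777% of reads lay in entries without a symbol. Normalized reads are counts divided by median-of-ratios size factors.

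The test was the authors' DESeq2 adjusted p under 0.05. As an alternative limma-voom (limma 3.58.1, R 4.3.3) was run on genes with a mean of at least 10 normalized reads, with Benjamini-Hochberg adjustment over all genes tested. Tested on simulated data, it found 100% of genes set 2-fold higher and 98% of halved genes for the mock comparison with untransfected cells. For the sample comparison it found 97% and 93%. The simulation had the same spread in every library, which the real sample pair exceeds. Only genes with a mean of at least 50 normalized reads were changed, so smaller changes and changes in lower genes were not tried. Floors are 3 reads. Other alternatives changed the threshold, filter, library sizes, centring, entries and libraries kept. Leaving out libraries for genes outside the members was chosen after seeing the data. The members and lists were chosen with earlier results of these data known. Outside the members, the rule named per list and comparison up to 3 called genes of the largest fold change with a mean of at least 50, and 14 genes whatever their result; some of these genes are not reported here. Python 3.11.15, numpy 2.4.6, pandas 2.3.3 and matplotlib 3.10.9 were used.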

Additional observations from a re-analysis of the deposited data

How the results depend on the processing

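No paired analysis was possible because the recovered libraries could not be tied to replicate numbers. Over the fold changes of the members and all alternatives, 334 values kept their direction and side of the threshold. Another 22 passed it newly, 7 no longer passed it and 13 turned sign, none of these 13 past the threshold in either setting. Part of the 334 could not have changed. Stricter thresholds leave a result that was not called as it was, and centring moved the fold change but kept the adjusted p. With a log2 fold change of at least 1 required as well, 1 member was called in mock and 1 in sample cells, and 23 and 19 listed pathway genes. Keeping genes with a mean of at least 1, limma-voom called 4 members in sample cells. Leaving out 1 library at a time gave 3 to 6 members in mock, 2 to 5 in sample against untransfected and 0 to 1 in sample against mock cells. Listed pathway genes then numbered 89 to 124, 67 to 96 and 0 to 16, the last without the deeper sample library. In these fits 8 or 9 members and 174 or 175 listed genes were tested. No share of all genes called is given for them or for the settings named before them. These counts, the 16 listed genes included, therefore cannot be set beside a genome-wide share. Library totals as sizes moved the median gene by -0.13 in mock and -0.11 in sample cells. TBK1 then lost its call in mock cells (0.38, adjusted p = 0.101). MAVS was then at -0.093 in mock and -0.0065 in sample cells, and IFI16 at -0.026 in sample cells. Upper-quartile sizes put MAVS at -0.051 in mock cells. Leaving out 1 library at a time gave MAVS -0.014 to 0.077 in mock cells. For sample against untransfected cells it gave IFI16 -0.016 to 0.43, STING1 -0.27 to 0.52, MAVS -0.048 to 0.52 and TBK1 -0.052 to 0.58. For sample against mock cells it gave STING1 -0.72 to 0.058, IFIH1 -0.50 to 0.24, MAVS -0.097 to 0.48 and TBK1 -0.55 to 0.061. Both ends of each range came from leaving out a sample library, except those of MAVS in mock cells (untransfected libraries) and the upper end for IFIH1 (deeper mock library). The cause was not tested. Depth limits the low genes STING1, DHX58 and TLR3, in the shallower sample library most of all.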
